A study of Mus musculus with 10 samples.

Results

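A set of genes used as markers of Schwann cells, the glia that wrap and support peripheral nerves, was measured in the digit tip blastema. They were chosen by name and make up 7 of the 21729 protein-coding genes of the deposited expression table (and of 55416 genes in the library files): Erbb3, Ngfr, Ncam1, Cdh19, Mbp, S100b and Foxd3. All 7 were found in every library and all 7 passed the filter on low counts, and their levels ranged from 0.05 to 33.32 TPM (transcript abundance relative to the library's total, with transcript length taken into account).

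A blastema is the mass of dividing cells that forms at an amputated digit tip before the tip grows back. Each of 10 RNA libraries came from a pool of 6 central hindlimb digits, cut at the tip and dissected 12 or 14 days post amputation (dpa). The mice had a mixed CD1 C57Bl/6 background and were 33 days old at 12 dpa and 35 days old at 14 dpa. One genotype was wild type. The other was ΔLARM1/2, which lacks LARM1 and LARM2, the enhancers through which Lmx1b is switched on in the limb; mutant means this genotype throughout. The groups were wild type at 12 dpa (n = 2), mutant at 12 dpa (n = 3), wild type at 14 dpa (n = 2) and mutant at 14 dpa (n = 3). The design text calls the libraries biological replicates and does not say how many animals each pool came from, so p-values measure the spread between these libraries. No unamputated digit was among the groups, and all comparisons are between amputated digits.

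Schwann cells arise from the neural crest, whose transcription factor Foxd3 is also kept in their precursors. Axons signal to them with neuregulin 1, which binds the receptor ERBB3 and is passed on by its partner ERBB2, and with neurotrophins, which bind NGFR (p75). A Schwann cell that myelinates makes myelin proteins such as MBP, while non-myelinating, immature and injury-activated cells carry more NCAM1 and NGFR. After nerve injury Schwann cells lose their myelin genes and return to an immature, growth-promoting state. None of the 7 genes is unique to Schwann cells. Erbb3 and Erbb2 are also used by epithelia, Ngfr and Ncam1 by other nerve and mesenchymal cells, and S100b by cartilage and fat. Melanocytes, which share the neural crest origin, also use Erbb3, while Foxd3 is a gene of the neural crest itself.

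The libraries held 69998104 to 101632364 counted reads. Lmx1b, whose limb enhancers were deleted, was at 1.69 to 2.94 CPM (reads relative to the library's total, with length left out of account) in the wild type libraries and 0.0278 to 0.336 CPM in the mutant libraries, which do not overlap. One library needs care. Mutant 14 dpa replicate 1 is mutant by its title and description and wild type by its genotype tag, and its Lmx1b level of 0.234 CPM lay within the range of the other mutant libraries. Among 9 genes (the 7 members with the lineage markers Sox10 and Pmp22) it had the lowest TPM of the 10 libraries in 5, one of them tied. It also had the highest CPM of Erbb3 and the highest summed TPM of 14 keratinocyte markers. It was kept as mutant, and the results that rest on it are also given without it.

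The Schwann label was checked against 4 other markers of the lineage, shown in the plot of lineage and myelin markers. Sox10, the transcription factor that defines neural crest glia, was low in every library. At 12 dpa its TPM was 0.33 and 0.26 in wild type and 0.32, 0.43 and 1.23 in mutant, and at 14 dpa it was 0.21 and 0.19 in wild type and 0.19, 0.36 and 0.26 in mutant. The highest of these, mutant 12 dpa replicate 3, also had the highest level of Tyrp1, a melanocyte pigment enzyme, at 8.97 TPM; the part of melanocytes in that Sox10 value was not tested. Mag, a myelin adhesion protein, was at 0.02 to 0.15 TPM. Prx, which stabilises peripheral myelin, was at 0.46 to 1.35 TPM. Pmp22 stood out at 12.04 to 22.96 TPM; it encodes a peripheral myelin protein that many other cells also make. All 4 were thus detected, 3 of them at a low level, and none of the 4 passed the test between genotypes described below. In these bulk samples fewer Schwann cells and less RNA per cell cannot be told apart.

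**Figure D1:**
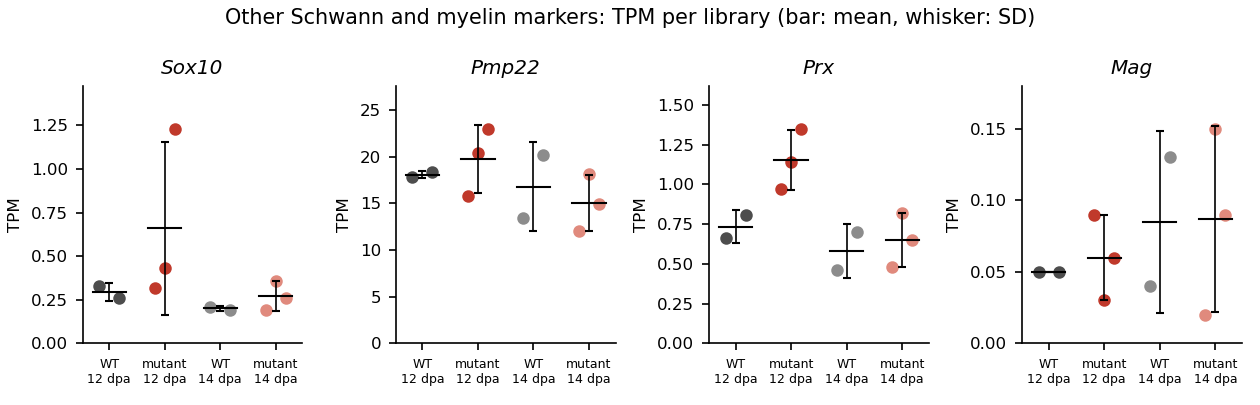
TPM (y axis) of 4 further Schwann and myelin markers in the 4 groups (x axis: wild type, WT, and mutant at 12 and 14 dpa), with a point per library, a bar at the mean and a whisker of 1 SD. Sox10 has 1 high library at 1.23 TPM, and Pmp22 lies between 12.04 and 22.96 TPM in all libraries.

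Because TPM takes length into account, it allows the levels of different genes to be ordered. In wild type tissue at 12 dpa the order was Erbb3 at 14.8 ± 1.36 TPM (SD, n = 2), Mbp at 7.67 ± 1.48, Ncam1 at 2.63 ± 0.120 and Ngfr at 1.67 ± 0.820, followed by S100b at 0.27, Cdh19 at 0.23 and Foxd3 at 0.145 TPM. Erbb3 and Mbp led in all 4 groups, and their libraries never overlapped with those of the gene ranked next. The other end of the order was a low group of S100b, Cdh19 and Foxd3, each under 0.44 TPM in every library, in which S100b and Cdh19 overlapped in all 4 groups. Ncam1 ranked above Ngfr in 3 groups, overlapping with it in mutant tissue at 12 dpa. In mutant tissue at 14 dpa Ngfr, at 1.61 TPM, stood above Ncam1, at 0.853 TPM, with no overlap.

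**Figure D2:**
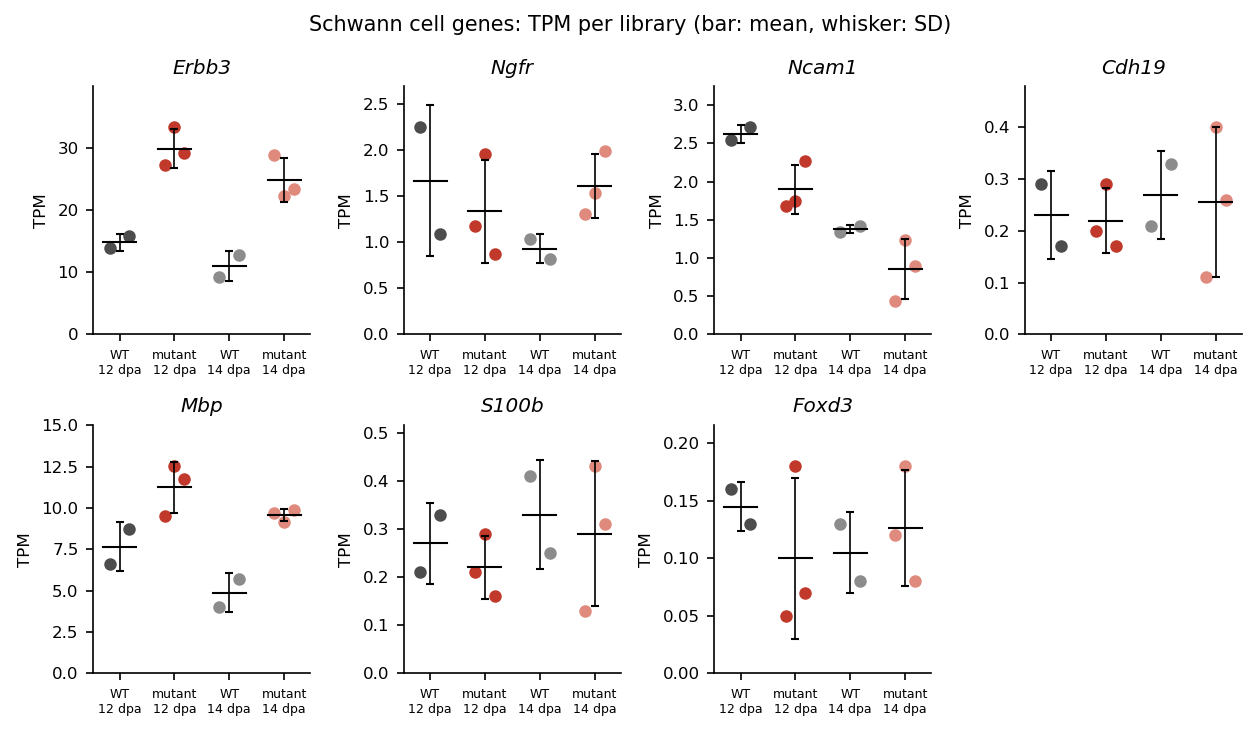
TPM (y axis) of the 7 Schwann cell genes in the 4 groups (x axis: wild type, WT, and mutant at 12 and 14 dpa), with a point per library, a bar at the mean and a whisker of 1 SD. Erbb3 and Mbp lie higher and Ncam1 lower in every mutant library than in the wild type libraries of the same day, while the other 4 overlap on at least 1 day.

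The first comparison asked how the loss of the Lmx1b limb enhancers went with each gene, averaged over both days. Of the 7 genes, the neuregulin receptor gene Erbb3 and Mbp were higher in mutant blastemas, by 1.76-fold and 1.45-fold. The adhesion gene Ncam1 was lower, at 60.1% of wild type. The Mbp value includes transcripts made outside myelin too, as given below. The other 4, Ngfr, Cdh19, S100b and Foxd3, did not pass the test, with wide intervals. Tests were made with edgeR's quasi-likelihood method on the expected counts with Benjamini-Hochberg adjustment over 20216 genes. At an adjusted p under 0.05, 3 of the 7 genes (42.9%) were called, against 43.7% of all genes tested, so the share of members called was near the background. The same 43.7% is the background for the calls over both days in the gene lists below. The members' median log2 fold change was -0.29 and that of all genes 0.02. The same 3 genes were those whose mutant libraries lay on 1 side of the wild type libraries on both days, as was true of 37.2% of all genes. By direction, 21.5% of all genes were called higher and 22.2% lower. Among all calls 49.2% were higher, but 71.8% were higher when log2(TPM + 1) was tested, a scale on which the median of all genes moved to 0.14.

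**Figure D3:**
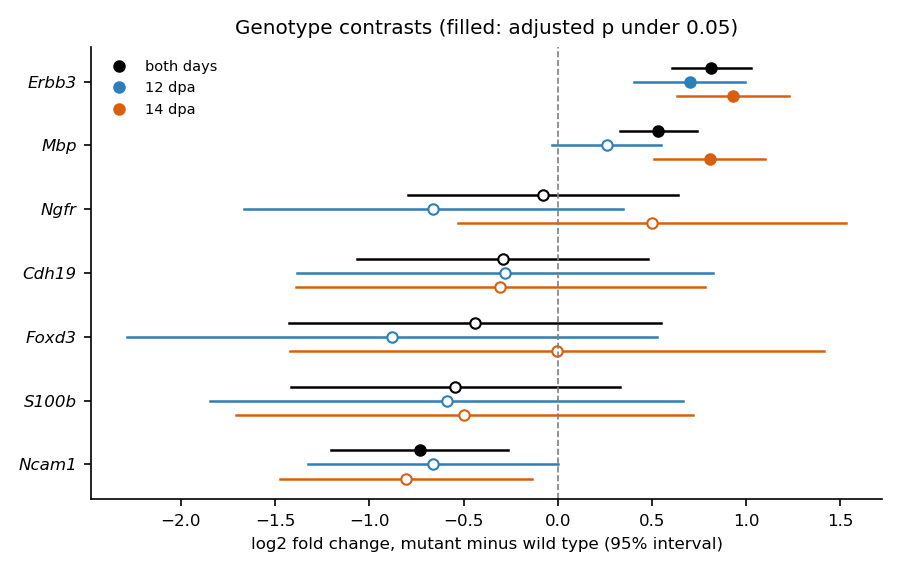
Log2 fold change of mutant over wild type (x axis) with its 95% interval for each of the 7 genes (y axis), for both days averaged, 12 dpa and 14 dpa. Filled points have an edgeR adjusted p under 0.05: Erbb3 in all 3 comparisons, Mbp in both days and at 14 dpa, and Ncam1 in both days.

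Erbb3 (ENSMUSG00000018166) encodes the receptor through which Schwann cells read axonal neuregulin. Its TPM at 12 dpa was 13.87 and 15.79 in wild type and 27.22, 33.32 and 29.2 in mutant. At 14 dpa it was 9.27 and 12.74 in wild type and 28.92, 22.21 and 23.42 in mutant. Every mutant library therefore lay above every wild type library of both days. On the CPM scale the 4 wild type libraries were close together, at 109 ± 4.25 CPM (SD, n = 4), and the 6 mutant libraries lay between 165 and 226 CPM, with a mean of 192. The log2 fold change over both days was 0.81 (SE 0.09, adjusted p = 0.000276 by edgeR), and the 95% interval of the fold change was 1.52 to 2.03. Without mutant 14 dpa replicate 1 it was 0.77 (adjusted p = 0.000385).

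Erbb3 was the only member that passed at 12 dpa, when a member that did not pass had a log2 fold change of -0.88. At 14 dpa Erbb3 had the largest measured change of the 7 genes. For Erbb3 at 12 dpa the log2 fold change was 0.70, with an SE of 0.13 and an adjusted p of 0.009. At 14 dpa it was 0.93, with an SE of 0.13 and an adjusted p of 0.00211. At 12 dpa the call rested on both wild type libraries: the adjusted p was 0.0504 without wild type replicate 1 and 0.0695 without wild type replicate 2. The call at 14 dpa held when any single library was left out, with adjusted p values up to 0.0217.

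ERBB3 signals as a pair with ERBB2, and Erbb2 moved the same way. Its TPM at 12 dpa was 19.6 and 23.66 in wild type and 33.63, 38.05 and 35.93 in mutant, and at 14 dpa 11.37 and 18.21 in wild type and 29.17, 21.76 and 24.06 in mutant. The mutant libraries of each day lay above its wild type libraries, and the log2 fold change over both days was 0.48 (SE 0.10, adjusted p = 0.00496). Nrg1, the gene of the ligand, was at 2.14 to 7.97 TPM and did not pass (log2 fold change 0.06, SE 0.21, adjusted p = 0.841). Of the 12 genes of the neuregulin and ErbB list, 11 were tested, with a median of 0.15. Among these 4 were higher, 2 lower and 5 did not pass, beside 43.7% of all genes called. Erbb4 was higher by 2.36 on the log2 scale (SE 0.52) from a level of 0.09 TPM or less in every library. Adam17, a protease that sheds ErbB ligands, was higher by 0.48, and Bace1, the protease that cuts neuregulin 1, was lower, with a log2 fold change of -0.77 (SE 0.10, adjusted p = 0.000601).

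Keratinocyte markers moved with genotype in the same direction as Erbb3. The summed TPM of 14 such genes was 20780 to 25946 in wild type and 38653 to 54542 in mutant at 12 dpa, and 17920 to 18635 in wild type and 36731 to 55701 in mutant at 14 dpa. Of the 14 genes, 9 were higher, 1 was lower and 4 did not pass, with a median log2 fold change of 0.83; Krt10 was the most abundant, and Krt5, a basal keratin, rose by 1.32 (SE 0.13). None of the 14 was at 0 in every library. The part of these cells in the Erbb3, Erbb2 and Mbp differences was not tested.

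Ngfr (ENSMUSG00000000120) encodes the p75 neurotrophin receptor, which immature and injury-activated Schwann cells carry. Its TPM at 12 dpa was 2.25 and 1.09 in wild type and 1.18, 1.96 and 0.87 in mutant. At 14 dpa it was 1.04 and 0.82 in wild type and 1.31, 1.54 and 1.99 in mutant. The groups overlapped at 12 dpa. At 14 dpa the mutant libraries lay above the wild type libraries in TPM, but in CPM, where wild type was at 6.49 and 3.89 and mutant at 5.72, 7.01 and 9.29, they overlapped. Over both days Ngfr had a log2 fold change of -0.08 (SE 0.32, adjusted p = 0.857 by edgeR), with an interval of the fold change from 0.576 to 1.56, so a change of either sign within these bounds was not detectable with these libraries. On single days Ngfr was at -0.66 (SE 0.44, adjusted p = 0.328) for the earlier day and 0.50 (SE 0.46, adjusted p = 0.418) for the later day.

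The neurotrophin list had 10 genes in the files, of which 9 were tested, with a median of 0.35. Among these 3 were higher, 1 lower and 5 did not pass, beside 43.7% of all genes called. Sort1, encoding sortilin, which pairs with NGFR in binding neurotrophin precursors, was higher by 0.73 (SE 0.12, adjusted p = 0.00172), from 15.1 ± 3.72 TPM (SD, n = 4) in wild type to 30.1 ± 5.53 TPM (SD, n = 6) in mutant. Its relative Sorcs1 was also higher (SE 0.29, adjusted p = 0.00585), at 0.11 TPM or less in every library. Ntrk3, the receptor for neurotrophin 3, was lower, at -0.86 (SE 0.26, adjusted p = 0.0248), while its mean TPM was close in wild type (0.188) and mutant (0.197).

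Ncam1 (ENSMUSG00000039542) encodes a cell adhesion molecule of non-myelinating and immature Schwann cells. At 12 dpa its TPM was 2.54 and 2.71 in wild type and 1.68, 1.74 and 2.27 in mutant. At 14 dpa it was 1.34 and 1.42 in wild type and 0.44, 1.23 and 0.89 in mutant. The mutant libraries lay below the wild type libraries of the same day on both days, although the 12 dpa mutant libraries were above the 14 dpa wild type libraries. Over both days its log2 fold change was -0.73 (SE 0.21, adjusted p = 0.0191 by edgeR), and the interval of the fold change was 0.434 to 0.834. Neither day passed alone: the value was -0.66 (SE 0.30, adjusted p = 0.150) for 12 dpa, and -0.81 (SE 0.30, adjusted p = 0.0628) for 14 dpa.

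The lowest Ncam1 value, 0.44 TPM from 270 reads, came from mutant 14 dpa replicate 1. Without that library the log2 fold change over both days was -0.59 (adjusted p = 0.00743), and Ncam1 also passed at 12 dpa (adjusted p = 0.0303). The call over both days was lost without wild type 12 dpa replicate 1 (adjusted p = 0.0569) or without wild type 14 dpa replicate 1 (adjusted p = 0.0604). It was also lost on the scales of log2(TPM + 0.1), at -0.59 (adjusted p = 0.0610), and log2(TPM + 1) with no filter on low values, at -0.36 (adjusted p = 0.0868).

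Ncam1 is also made by natural killer cells, muscle and mesenchyme. The summed TPM of 10 T and natural killer cell genes was 0.6 to 1.6, with the natural killer receptor gene Ncr1 at 0 in every library. That of 9 skeletal muscle genes was 0.26 to 1.26. Ncam1 itself was at 0.44 to 2.71 TPM. The 10 digit blastema fibroblast genes together came to 927 to 2109 TPM in wild type and 51.9 to 64.1 TPM in mutant at 12 dpa, and to 497 to 726 TPM and 19.3 to 45.4 TPM at 14 dpa. In wild type most of that sum was 1 gene, Lrrc15, at a mean of 978 TPM, against 15.8 TPM in mutant. The other genes changed less: mean TPM went from 21.7 to 3.31 for Msx2 and from 17.5 to 9.36 for Prrx1. Of these 10 genes 9 were lower and 1 did not pass, beside 43.7% of all genes called. Their median log2 fold change was -1.45. The part of natural killer cells, muscle or mesenchyme in the Ncam1 difference was not tested. Among 11 partners of NCAM1 and S100B, 2 were higher, 3 lower and 6 did not pass, beside 43.7% of all genes called. Their median was -0.43. St8sia2, an enzyme that adds polysialic acid to NCAM1, was lower, at -1.26 (SE 0.32, adjusted p = 0.0117), with TPM of 0.35 to 0.76 in wild type and 0.13 to 0.63 in mutant. Fgfr1, a receptor that NCAM1 can bind, was lower, at -0.78 (SE 0.13), and the related adhesion gene Chl1 was higher, at 0.95 (SE 0.11, adjusted p = 0.000298).

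Cdh19 (ENSMUSG00000047216) encodes a cadherin found in the Schwann cell lineage from the precursor stage on. At 12 dpa its TPM was 0.29 and 0.17 in wild type and 0.2, 0.29 and 0.17 in mutant, and at 14 dpa 0.21 and 0.33 in wild type and 0.11, 0.4 and 0.26 in mutant. Wild type and mutant overlapped on both days, and the lowest and highest values were both from mutant libraries at 14 dpa. These levels rested on 43 to 172 reads per library. Over both days its log2 fold change was -0.29 (SE 0.35, adjusted p = 0.517 by edgeR), with an interval of the fold change from 0.477 to 1.40.

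Mbp (ENSMUSG00000041607) encodes myelin basic protein, which compacts the myelin sheath. At 12 dpa its TPM was 6.62 and 8.71 in wild type and 9.51, 12.52 and 11.73 in mutant. At 14 dpa it was 4.04 and 5.72 in wild type and 9.68, 9.17 and 9.91 in mutant. All 6 mutant libraries were above all 4 wild type libraries in TPM, and the 3 mutant libraries at 14 dpa were close together. In CPM the means were 33.5 ± 4.75 (SD, n = 4) in wild type and 48.4 ± 6.13 (SD, n = 6) in mutant. The log2 fold change over both days was 0.53 (SE 0.09, adjusted p = 0.00185 by edgeR), with an upper bound of the fold change of 1.67 and a lower bound of 1.25, and without mutant 14 dpa replicate 1 it was 0.52 (adjusted p = 0.00375). It passed at 14 dpa (0.81, SE 0.13, adjusted p = 0.00326) and not at 12 dpa (0.26, SE 0.13, adjusted p = 0.188).

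The Mbp gene gives rise to different products from different start sites. Transcripts from the upstream start encode golli proteins, which are made outside myelin too, and transcripts from the downstream start encode the classic myelin basic proteins. The files list 16 Mbp transcripts, of which the GENCODE M21 annotation places 4 at the upstream start and 12 at the downstream start or further in. The longest, Mbp-205 with 4797 bases, starts upstream, as does the second longest with 2492 bases; the longest from the downstream start has 2070 bases. The deposited mean transcript length, which weights each transcript by its estimated abundance, was 3824 to 4380 bases in the 10 libraries. A mean this far above 2492 bases requires a large share of the longest transcript, whatever the mix of the rest.

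That share was at least 57.8% to 81.9% and at most 78.1% to 90.6% of Mbp transcripts, depending on the library. At 14 dpa the longest transcript had at most 3.16 and 4.75 TPM in wild type and at least 7.93, 5.46 and 7.07 TPM in mutant, so these bounds did not overlap. At 12 dpa the wild type bounds were 4.17 to 5.35 and 5.33 to 6.95 TPM, and the mutant bounds 5.70 to 7.53, 8.04 to 10.2 and 7.94 to 9.76 TPM, of which the first overlapped with wild type replicate 2. All other Mbp transcripts together, including every one from the downstream start, had at most 1.71 to 4.48 TPM. On both days the bounds of these others overlapped between genotypes. At 14 dpa they were 0.885 to 1.71 and 0.974 to 1.88 TPM in wild type. In mutant they were 0.909 to 1.75, 1.92 to 3.71 and 1.47 to 2.84 TPM. A rise of the transcripts from the downstream start was therefore not shown. Most of the Mbp signal in every library was therefore assigned to a transcript from the upstream start. The bounds rest on how RSEM, the counting program, shared reads among overlapping transcripts.

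**Figure D4:**
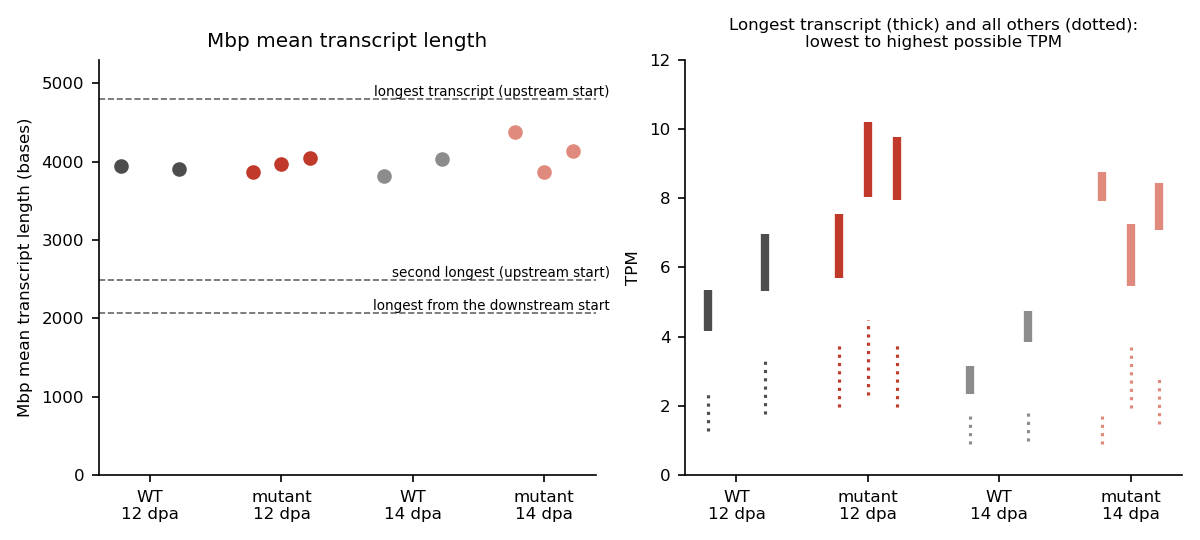
Left, the mean Mbp transcript length in bases (y axis) for each library in the 4 groups (x axis), with dashed lines at 4797, 2492 and 2070 bases for 3 annotated transcripts. Right, the lowest to highest possible TPM (y axis) of the longest transcript (thick) and of all other transcripts (dotted) per library; at 14 dpa the thick bars of the mutant libraries lie above those of wild type.

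Other myelin genes did not share the direction of Mbp as a group. Of 25 genes of the myelin list 24 were tested, with a median log2 fold change of 0.15. Among these 5 were higher, 4 lower and 15 did not pass, beside 43.7% of all genes called. Prx (log2 fold change 0.13, SE 0.18), Mag (-0.38, SE 0.44) and Pmp22 (-0.32, SE 0.12, adjusted p = 0.0538) did not pass.

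The myelin-list genes that changed most were not markers of myelin alone. Mal, a raft protein that epithelia also make, was lower (-3.69, SE 0.27, adjusted p = 6.42e-05), at 27.2 ± 11.2 TPM (SD, n = 4) in wild type and 3.08 ± 2.50 TPM (SD, n = 6) in mutant. Cadm4, an adhesion protein of the Schwann cell surface facing the axon, was also lower (-2.86, SE 0.18, adjusted p = 2.54e-05). Nfasc, an adhesion protein of the node region, was higher (3.19, SE 0.41) from 0.23 TPM or less in every library. Gjb1, a gap junction gene of myelinating Schwann cells and of liver, was higher (adjusted p = 0.00649), at 0.03 TPM or less in wild type and 0.05 to 0.14 TPM in mutant.

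S100b (ENSMUSG00000033208) encodes a calcium-binding protein used as a stain for Schwann cells. Its TPM at 12 dpa was 0.21 and 0.33 in wild type and 0.21, 0.29 and 0.16 in mutant, and at 14 dpa 0.41 and 0.25 in wild type and 0.13, 0.43 and 0.31 in mutant. The groups overlapped on both days, on 17 to 76 reads per library. The log2 fold change over both days was -0.54 (SE 0.39, adjusted p = 0.283 by edgeR), with an interval of the fold change from 0.375 to 1.26. Chondrocytes and adipocytes also make S100b: 13 chondrocyte genes summed to 87.1 to 87.3 TPM in wild type and 49.5 to 87.4 TPM in mutant at 12 dpa, and to 58.0 to 63.0 and 43.2 to 54.1 TPM at 14 dpa. Of the 12 chondrocyte genes tested 7 were lower, 1 was higher and 4 did not pass, with a median log2 fold change of -2.23. Sox9 was the most abundant and made up much of the sum, at a mean of 37.2 TPM in wild type and 42.1 TPM in mutant. Mean TPM went from 0.6 to 0.025 for Col2a1 and from 3.35 to 0.505 for Hapln1, and for Sox6, the higher gene, from 2.39 to 5.39. The 8 adipocyte genes summed to 19.2 to 23.5 TPM in wild type and 1.06 to 1.67 TPM in mutant at 12 dpa. At 14 dpa they summed to 1.85 to 6.47 TPM in wild type and 0.26 to 1.11 TPM in mutant. Fabp4 made up most of that sum, at a mean of 12.6 TPM in wild type and 0.942 TPM in mutant. Cidec, Cfd and Retn were at 0 in every library. Adipoq and Plin1 reached at most 0.01 TPM, Lep 0.04 and Pparg 0.2, so the sum is in effect a measure of Fabp4. The part of chondrocytes and adipocytes in the S100b levels was not tested.

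Foxd3 (ENSMUSG00000067261) encodes the neural crest transcription factor. Its TPM at 12 dpa was 0.16 and 0.13 in wild type and 0.05, 0.18 and 0.07 in mutant, and at 14 dpa 0.13 and 0.08 in wild type and 0.12, 0.18 and 0.08 in mutant. The groups overlapped on both days. It was the least abundant of the 7, with 10 to 53 reads per library; the exact 95% Poisson interval of 10 reads is 4.80 to 18.4 reads and covers counting error only. Over both days its log2 fold change was -0.44 (SE 0.44, adjusted p = 0.441 by edgeR), with an interval of the fold change from 0.371 to 1.46.

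Melanocytes share Sox10 and Erbb3 with Schwann cells, and Foxd3 is a gene of the neural crest from which both arise. The summed TPM of 12 melanocyte genes was 7.69 to 15.4 in wild type and 5.49 to 38.0 in mutant at 12 dpa, and 5.54 to 7.83 and 10.7 to 21.6 at 14 dpa. Of 11 tested, 8 were higher, 2 were lower and 1 did not pass, with a median log2 fold change of 4.80, or 3.43 with Tyr, Oca2, Slc45a2 and Mlana, at 3 reads or fewer in every wild type library, set to a floor of 3 reads per library. The most abundant was Mitf, a transcription factor used by melanocytes. It was lower (-2.99, SE 0.26, adjusted p = 0.000133), at 6.79 ± 3.95 TPM (SD, n = 4) in wild type and 1.05 ± 0.587 TPM (SD, n = 6) in mutant. Most of the wild type sum was Mitf, so the sums do not follow the pigment genes. Mean TPM went from 0.18 in wild type to 5.035 in mutant for Pmel, from 0.24 to 4.23 for Dct and from 0.0125 to 3.58 for Tyrp1. The other lower gene was Ednrb, from 1.49 to 0.515 TPM. Mlana, a melanosome gene, was at most 0.02 TPM in wild type and at 0.06 to 0.65 TPM in mutant. The part of these cells in the Erbb3, Sox10 and Foxd3 levels was not tested.

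The second question was whether the genotype difference changed between days. At 12 dpa 1 of the 7 genes was called, Erbb3, against 16.5% of all genes, and at 14 dpa 2 were called, Erbb3 and Mbp, against 33.3% of all genes. The difference itself, tested as an interaction in edgeR, was called for none of the 7 genes and for 0% of all genes; 1763 genes (8.72%) and 1 member had an unadjusted p under 0.05 there, and DESeq2 and limma-voom also called none of the 7. That member was Mbp, with a difference of 0.55 in log2 fold change (SE 0.18, 95% interval 0.14 to 0.95, adjusted p = 0.544). The largest difference was that of Ngfr, at 1.16 (SE 0.64, interval -0.28 to 2.60, adjusted p = 0.632). No difference between days was thus shown for any of the 7, and for Cdh19, S100b and Foxd3 the intervals span more than 3 log2 units.

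From 12 to 14 dpa none of the 7 genes was called in either genotype. In wild type 0% of all genes were called and 8.18% had an unadjusted p under 0.05, none of them a member, and the lowest adjusted p was 0.617, for Mbp at -0.30 (SE 0.14). In mutant 0.0346% of all genes were called, 7 in number, and 18.8% had an unadjusted p under 0.05. The member among these was Ncam1, at -0.75 (SE 0.27, adjusted p = 0.191). Ncam1 was lower at 14 than at 12 dpa by a similar size in wild type, at -0.60 (SE 0.33, adjusted p = 0.656). Limma-voom called none of the 7 in either genotype; DESeq2 called none of the 7 in wild type and none of the 5 to which it gave an adjusted p in mutant, S100b and Foxd3 having none.

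Genes that mark the identity of Schwann cells or their immature and repair states were called in both directions. Of 26 listed genes 25 were tested, with 3 higher, 7 lower and 15 not passing, a share called near the 43.7% of all genes, and a median log2 fold change of -0.34 beside 0.02 for all genes. Gap43, a growth protein of axons and immature Schwann cells, was lower (-2.13, SE 0.26, adjusted p = 0.000342), at 0.49 to 0.83 TPM in wild type and 0.11 to 0.28 TPM in mutant. Itga4, an integrin subunit, was lower (-2.22, SE 0.33), and so was Mcam, an adhesion gene that vessels also use (-1.80, SE 0.16). All 8 endothelial markers were lower as well, with a median of -1.79; Pecam1 was the most abundant, and the part of vessels in the Mcam value was not tested. Olig1, a glial transcription factor, was higher (3.21, SE 0.50, adjusted p = 0.00151), from 0.265 ± 0.0957 TPM (SD, n = 4) in wild type to 3.07 ± 1.57 TPM (SD, n = 6) in mutant.

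**Figure D5:**
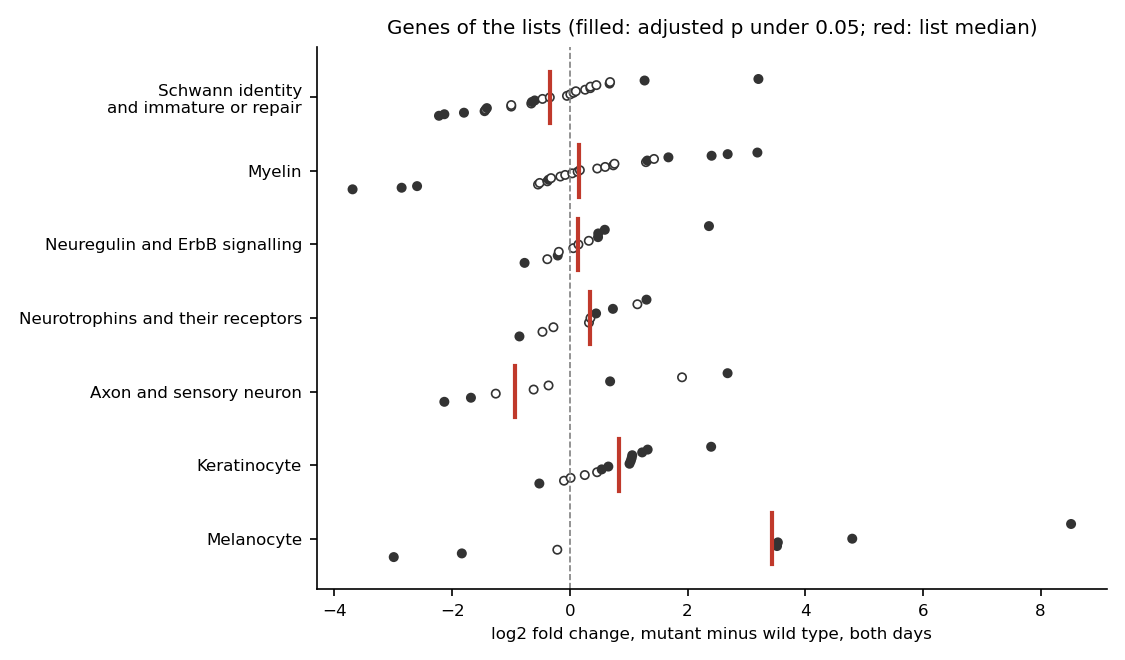
Log2 fold change of mutant over wild type over both days (x axis) of each tested gene of 7 lists (y axis), filled where the edgeR adjusted p is under 0.05, with the list's median in red; Scn9a, Scn10a, Tyr, Oca2, Slc45a2 and Mlana, with 3 reads or fewer in every library of 1 genotype, are not drawn and enter the medians at a floor of 3 reads per library. The Schwann identity, myelin and ErbB lists spread to both sides of 0, while most keratinocyte and melanocyte genes lie to the right.

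Axons accompany Schwann cells in a nerve, so genes of axons and sensory neurons were listed. Of 17 listed genes 10 were tested, with a median of -0.94. Among these 2 were higher, 4 lower and 4 did not pass, beside 43.7% of all genes called. Elavl4 had at most 2 reads in any library. The sodium channel gene Scn9a was at 0.0825 to 0.231 CPM in wild type and at 0 in every mutant library, at least 4.74-fold lower against a floor of 3 reads per library, and Scn10a, another sodium channel gene, was at 0.227 to 0.531 CPM in wild type and at most 0.0224 CPM in mutant, under the same floor. Syt1, a synaptic vesicle gene, was higher (2.68, SE 0.51), and so was Tubb3, the most abundant of the list at a mean of 30.6 TPM. Nefl, Nefm and Nefh, the axonal filament genes of the same list, were at 0.04 TPM or less in every library. The part of axons in the Tubb3 and Syt1 values was not tested. Perineurial and endoneurial fibroblast genes gave 2 higher, 3 lower and 7 not passing of 12, beside 43.7% of all genes called. Their median was -0.14. Itgb4 was the most abundant, at a mean of 139 TPM, followed by Cldn1 at 82.8 and Slc2a1 at 69.5 TPM, while Ntng1 and Dlk1 were at 0.13 TPM or less in every library. The part of keratinocytes in these values was not tested.

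Growth factors and receptors picked for a possible link to Schwann cell precursors formed a list of 10, of which 9 were tested. Among these 2 were higher, 4 lower and 3 did not pass, beside 43.7% of all genes called. Their median was -0.46. Osm, encoding oncostatin M, was higher (adjusted p = 0.000798), from few reads in wild type, at 0.01 to 0.03 TPM in wild type and 0.15 to 0.95 TPM in mutant. Lif, a related cytokine, was higher too (adjusted p = 0.00421), at 0.320 ± 0.114 TPM (SD, n = 4) in wild type and 0.960 ± 0.669 TPM (SD, n = 6) in mutant. Pdgfra, the receptor for platelet-derived growth factor, was lower (-0.89, SE 0.25, adjusted p = 0.0192), and so was Bmp2 (-0.63, SE 0.21, adjusted p = 0.0363). Which cells made these transcripts was not tested.

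The profiles of the 7 genes over the 10 libraries were compared by the root mean square difference of centred log2 CPM. Erbb3 and Mbp were the closest pair, at 0.185, and Erbb3 and Ncam1 the farthest, at 0.968. Cdh19 and S100b, the next closest pair, differed by 0.477. Among 15399 other protein-coding genes, those nearest to Mbp were Srebf2 (0.0743) and Kdf1 (0.0822), and Erbb3 had Nfkbib (0.0839) among its nearest. Ncam1 was nearest to Loxl1 (0.176) and Fstl1 (0.177), Ngfr to Irak1bp1 (0.196) and Crct1 (0.281), and Cdh19 to Ntm (0.225) and C1qtnf7 (0.272). The low genes had no near match: S100b was nearest to Scn7a (0.299) and Npas3 (0.328), and Foxd3 to Gli1 (0.422) and Fbxo24 (0.428). Each of the 7 thus had genes outside the set that were nearer to it than any member. With 15399 genes searched and few other members, this does not tell whether the members belong together. It is a description over 10 libraries that share genotype and day.

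Promoters from RefSeq (GRCm38.p6) were read for Ngfr, Foxd3 and S100b, as the 250 bases before the start. On both strands none of the 3 held the SOX letters ACAAAG or ACAATG (25.2% of 32851 promoters do), the TEAD letters GGAATG (12.6%) or the EGR letters GCGTGGGCG (0.536%). This says only that these letters are not in these windows.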

How the data were processed

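Gene-level tables were deposited for 10 libraries, with a TPM table of 21729 protein-coding genes that equals the TPM of the single libraries and supplies gene names; other names came from GENCODE M21. Per the file headers, the layout is that of RSEM. GRCm39, RSEM 1.3.0, STAR 2.7.8a and FastQC are named, with no role, per the submitters' processing notes. The authors deposited expected counts without normalization; 13.9% were not whole, and all were rounded. The TPM values deposited by the authors are scaled by length and library; the mean transcript length deposited by the authors was used for Mbp. The deposited FPKM values were not used. The kit is stranded, per the labels, while the sources used here do not give the strand setting of the counts.

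Groups came from the titles, which number the wild type 14 dpa libraries in the opposite order to the descriptions. The members and gene lists were chosen with earlier results of these data known. Counts were tested with edgeR 4.0.16 (R 4.3.3; TMM, filterByExpr with a minimum count of 10 and a total of 15, robust quasi-likelihood) over 4 groups in 1 model; 20216 genes were tested and the common biological coefficient of variation was 0.277. The genotype difference was averaged over both days, taken on each day and compared between days, and days were compared within genotypes. SE is the log2 fold change divided by the root of F, and intervals are 95%. In simulated counts of 19530 genes for the comparison over both days, 40% of genes changed 2-fold and 97% changed 4-fold were called, with 12 false calls. There 200 genes were changed and all genes shared the common coefficient of variation. The data differ in both, so these figures do not give the power or false calls of the real test. Named genes were the 7 members, 4 lineage markers, 2 binding partners, up to 4 of each list (the largest changes that passed with libraries on 1 side on both days), the most abundant gene of other cell types, and the 2 nearest profiles; Prx, Mag, Tyrp1, Scn9a and further list genes were named after their values were seen. Some genes under this rule are not reported here. Replicates of a group differed by more than counting noise. Alternatives used DESeq2 1.42.0 and limma 3.58.1, other scalings, filters, pseudocounts of 1 and 0.1, a sex covariate, a replicate block, the genotype tag and leaving out each library.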

Additional observations from a re-analysis of the deposited data

How the results depend on the processing

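Placing mutant 14 dpa replicate 1 in wild type, as its genotype tag says, left 0 of the 7 genes called over both days (3 otherwise), 0 at 12 dpa (1) and 0 at 14 dpa (2). It also left 0 calls in the Schwann identity (10), myelin (9), neuregulin (6) and neurotrophin (4) lists and 0 among all genes (8843), with 5448 genes at an unadjusted p under 0.05 in edgeR. The log2 fold changes over both days were then 0.54 for Erbb3 (adjusted p = 0.165), 0.35 for Mbp (0.243), -0.41 for Ncam1 (0.365) and 0.050 for Cdh19, a reversed sign. Under the other alternatives and with each library left out, Erbb3 kept its call over both days at 0.74 to 1.09 and Mbp at 0.46 to 0.77. Leaving out each library gave 2 to 3 members called over both days, 0 to 2 at 12 dpa and 2 to 3 at 14 dpa; the 2 were called at 12 dpa without mutant 14 dpa replicate 1. Over the same omissions the lists had 9 to 11, 8 to 11, 4 to 7 and 3 to 6 calls in that order; the neurotrophin list had 3 in 4 of the 10 omissions. Ngfr, never called, changed sign with limma-voom (0.076), log2(TPM + 1) with and without a filter (0.12), log2(TPM + 0.1) (0.22) and the block on title numbers (0.032). With each library left out Ngfr ranged from -0.32 to 0.30, positive in 3 cases: 0.30 without the first wild type library of 12 dpa, 0.13 without the first of 14 dpa and 0.045 without mutant 12 dpa replicate 3. Cdh19 ranged from -0.51 to 0.032, the last without wild type 12 dpa replicate 1. Foxd3 ranged from -0.84 (without mutant 12 dpa replicate 2) to -0.12 (without wild type 14 dpa replicate 1), and S100b from -0.80 to -0.22 (without the second and the first wild type library of 14 dpa), neither called. The cause was not tested. A strict filter left S100b and Foxd3 untested.

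Replicate numbers were not treated as pairing: deviations of same-numbered libraries correlated at -0.109 to 0.0688 over 13 pairs. A replicate block left 3 members called over both days, 1 at 12 dpa and 2 at 14 dpa, and 6972 (titles) or 6919 (descriptions) of all genes. With 2 wild type libraries a day and 10 to 172 reads for Foxd3, S100b and Cdh19, changes within their intervals were not detectable.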
